A study of Homo sapiens with 9 samples.

Results

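Clec1a and 9 other genes that encode C-type lectin receptors, most of them known from myeloid cells, were followed through 9 orthotopic thyroid tumors of mice. The 10 genes (Clec1a, Clec1b, Clec2d, Clec4a2, Clec4d, Clec4e, Clec4n, Clec7a, Clec10a and Clec12a) were taken by symbol from the 17369 genes of the expression table, and Clec1a was chosen by its measured rise, the higher FPKM in tumors of adapted cells than in tumors of original cells. Its values in that contrast are therefore a description without a test, and the question asked of the data was whether the other lectins followed it. All 10 genes had a row in the table. Of these, 9 reached at least 1 FPKM (a fragment level scaled by transcript length and library size) in at least 3 tumors and entered the fit over 10263 genes, and Clec1b did not. Clec1a reached 1 FPKM in 1 original/B6129SF1 tumor and in all 6 tumors of adapted cells, so it passed this filter through the groups where it was high. The other 8 lectins tested reached 1 FPKM in all 9 tumors.

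The tumors came from TBP3743, a murine anaplastic thyroid cancer line with thyroid-specific Braf V600E and deletion of Trp53 that was derived from B6129SF1 mice. Original cells were implanted in the thyroid of B6129SF1 mice (original/B6129SF1, n = 3). Adapted cells, recovered from the third round of serial passage through C57BL/6 mice, were implanted in B6129SF1 mice (adapted/B6129SF1, n = 3) or in C57BL/6 mice (adapted/C57BL/6, n = 3). All hosts were females aged 6 weeks, each received 100000 cells, and the whole tumors were collected 14 days later, so that all 9 tumors carried the same Braf and Trp53 alterations. The original and the adapted cells each represent 1 line, and original cells in C57BL/6 hosts were not analysed here. Passage history and cell line cannot be told apart in this design, and in whole tumors fewer cells of a type cannot be told apart from less RNA per cell.

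C-type lectin receptors bind sugars, lipids or proteins on microbes and on damaged cells. Activating members signal through their own tyrosine motif or through the adaptor Fcer1g to the kinase Syk and the adaptor Card9, whereas inhibitory members recruit phosphatases such as Ptpn6. Many of the genes stand side by side in clusters on one chromosome, and macrophages, neutrophils and dendritic cells each carry several of the receptors. Clec1a (MelLec) is a receptor for fungal melanin that is known from endothelial cells and, in humans, also from myeloid cells.

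Skeletal muscle set a pair of tumors apart before any lectin was compared. The 10 muscle transcripts listed (among them Mylpf, the most abundant) made up 5.99% of the summed FPKM of adapted/B6129SF1 replicate 3 and 1.1% of that of adapted/C57BL/6 replicate 1. No other tumor exceeded 0.133%. These are also the tumors with the lowest Clec1a among those of adapted cells. Results were also computed without both, an alternative chosen after the data were seen, and their values are given where a call was lost. The part of muscle in the lectin levels was not tested otherwise.

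Clec1a was low in every tumor of original cells and higher in every tumor of adapted cells. In the original/B6129SF1 group its level was 1.96, 0.939 and 0.950 FPKM, with a mean of 1.28 ± 0.584 (SD, n = 3). The adapted/B6129SF1 tumors held 18.4, 14.7 and 11.9 FPKM (15.0 ± 3.30, SD, n = 3), and the adapted/C57BL/6 tumors held 11.4, 19.1 and 13.0 FPKM (14.5 ± 4.07, SD, n = 3). The highest original/B6129SF1 tumor stood far below the lowest tumor of adapted cells, at 11.4 FPKM, and the groups did not overlap. The means were 11.7 and 11.3 times that of the original/B6129SF1 group. On the log2(FPKM + 1) scale, where changes of low levels come out too small, the differences were 2.82 (SE 0.24) in the adapted/B6129SF1 group and 2.76 (SE 0.24) in the adapted/C57BL/6 group, the values for which the gene was picked. Without both muscle-rich tumors they were 2.97 and 2.91.

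Between the hosts of adapted cells, a contrast that did not enter the choice of the gene, Clec1a did not pass the test. The adapted/C57BL/6 tumors differed from the adapted/B6129SF1 tumors by -0.06 (SE 0.24, limma adjusted p = 0.977) on the log2 scale, and their ranges overlapped almost completely. Of all genes tested, 0.0292% were called in this contrast in either direction, where a call required both a Benjamini-Hochberg adjusted p from limma of less than 0.05 and a log2 difference of more than 1 in size. None of the other 8 lectins tested was among them. At an unadjusted p under 0.05, 643 of the 10263 genes passed.

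**Figure D1:**
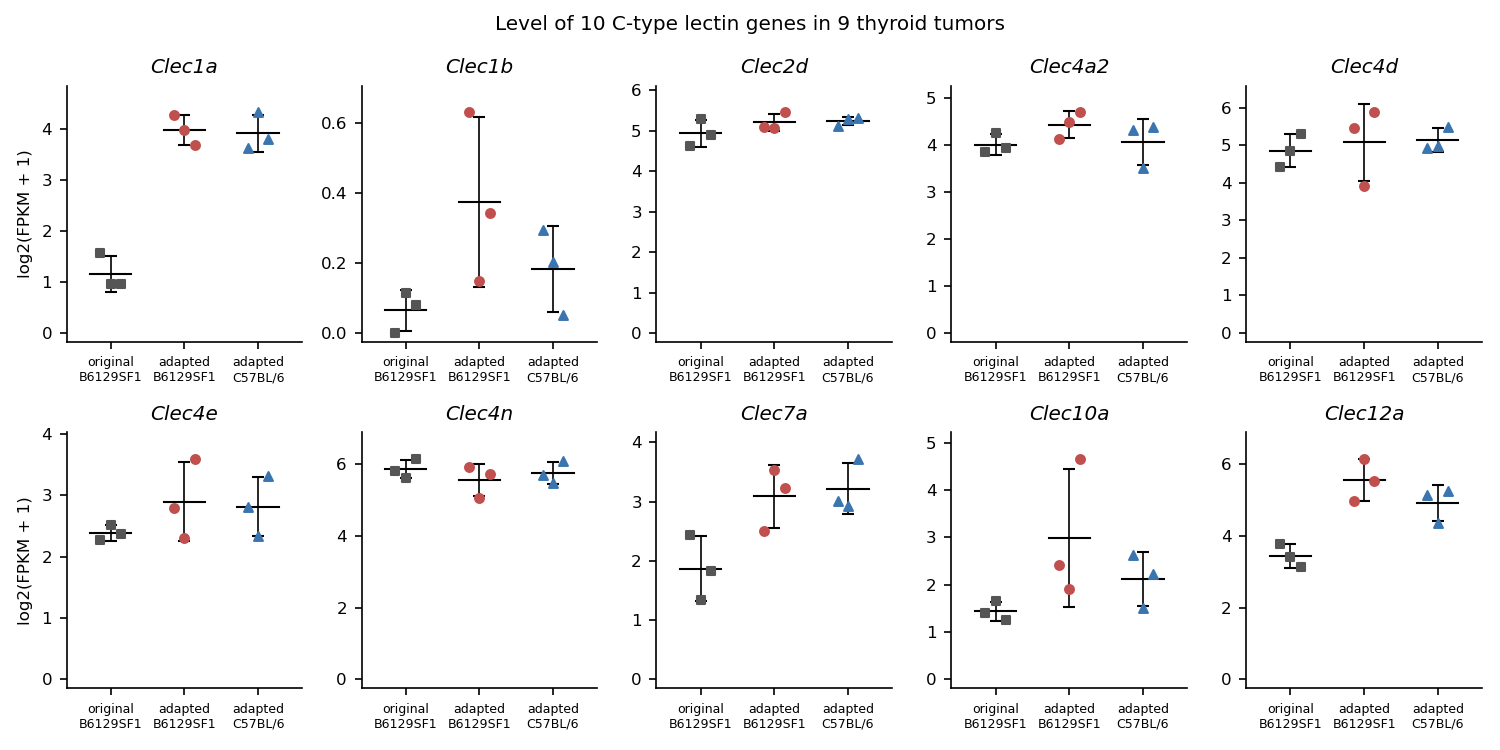
Level of each of the 10 lectin genes as log2(FPKM + 1), 1 point per tumor, with a line at the mean and bars for the SD of 3 tumors in the original/B6129SF1 (squares), adapted/B6129SF1 (circles) and adapted/C57BL/6 (triangles) groups. Clec1a, which was picked for this gap, Clec12a and, by a narrow margin, Clec7a show no overlap between original and adapted tumors. The share of all genes without such overlap was not computed. Clec4n, Clec2d and Clec4d hold similar levels in all groups, and the vertical scale differs between panels.

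The place of Clec1a among the 10 lectins moved with its level. In the original/B6129SF1 group the order of mean FPKM, a level per length, was Clec4n (57.8), Clec2d (30.1), Clec4d (28.7), Clec4a2 (15.3), Clec12a (10.05), Clec4e (4.24), Clec7a (2.82), Clec10a (1.72), Clec1a (1.28) and Clec1b (0.0463). Clec1a was thus ninth of 10 and took 0.87% of the summed FPKM of the 10 genes, and its range overlapped that of Clec10a, its neighbour above. In both groups of adapted cells Clec1a stood sixth, with 6.69% of the sum in the adapted/B6129SF1 group and 7.37% in the adapted/C57BL/6 group. There its range overlapped those of both neighbours in the order, which were Clec4a2 above and, below, Clec10a in the adapted/B6129SF1 group and Clec7a in the adapted/C57BL/6 group. Clec12a moved from the fifth place in the original/B6129SF1 group to the first in the adapted/B6129SF1 group and the fourth in the adapted/C57BL/6 group. Clec4n stood above the next lectin, Clec2d, without overlap in the original/B6129SF1 and adapted/C57BL/6 groups and overlapped with Clec12a in the adapted/B6129SF1 group, while Clec2d and Clec4d overlapped in every group.

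Of the 8 other lectins tested, 1 was called higher in adapted/B6129SF1 tumors and 1 in adapted/C57BL/6 tumors, and in both comparisons it was Clec12a. The share called higher among all genes tested was 2.36% in the adapted/B6129SF1 group and 2.42% in the adapted/C57BL/6 group, and the share called lower was 0.857% and 0.672%, while 0 lectins were called lower by limma. Since the comparisons share the original/B6129SF1 tumors, each is given on its own. The median difference over all genes tested was -0.03 on the log2 scale in both. Unadjusted, 2721 genes passed a p under 0.05 in the adapted/B6129SF1 group and 2502 in the adapted/C57BL/6 group.

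Among inhibitory receptors, Clec12a rose in tumors of adapted cells and Clec4a2 did not pass the test. Clec12a (MICL) is an inhibitory receptor of granulocytes, monocytes and dendritic cells that senses uric acid crystals from dying cells. Its level was 12.7, 9.71 and 7.72 FPKM in the original/B6129SF1 tumors, 30.6, 69.7 and 45.4 FPKM in the adapted/B6129SF1 tumors and 34.5, 19.3 and 37.3 FPKM in the adapted/C57BL/6 tumors. No tumor of adapted cells fell within the original/B6129SF1 range, although adapted/C57BL/6 replicate 2, the tumor with the highest Clec1a, was the nearest to it. The rise was 2.11 (SE 0.33, limma adjusted p = 0.0098) on the log2 scale in the adapted/B6129SF1 group and 1.48 (SE 0.33, limma adjusted p = 0.0351) in the adapted/C57BL/6 group. The adapted/C57BL/6 call was less firm. It was lost without original/B6129SF1 replicate 1, 2 or 3 (limma adjusted p = 0.0614, 0.0877 and 0.116), without adapted/C57BL/6 replicate 1 or 3 (0.0987 and 0.134), without both muscle-rich tumors (0.1) and with a replicate block (0.0891), whereas the adapted/B6129SF1 call held without both muscle-rich tumors (2.12, limma adjusted p = 0.0292).

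Clec4a2 (DCIR), an inhibitory receptor of dendritic cells and macrophages, measured 13.4, 18.2 and 14.3 FPKM in the original/B6129SF1 tumors, 16.6, 21.4 and 25.0 FPKM in the adapted/B6129SF1 tumors and 18.9, 10.4 and 19.8 FPKM in the adapted/C57BL/6 tumors. The groups overlapped, and the lowest of all 9 values belonged to adapted/C57BL/6 replicate 2. Its difference was 0.43 (SE 0.25, limma adjusted p = 0.305) in the adapted/B6129SF1 group and 0.05 (SE 0.25, limma adjusted p = 0.923) in the adapted/C57BL/6 group. Clec4a2 has close paralogs in the Clec4a family, and how fragments were divided between them is not stated in the sources used here, so its level is uncertain to that extent.

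Of the activating receptors, Clec7a came closest to passing, and Clec4n, Clec4d and Clec4e did not approach it. Clec7a (Dectin-1) is the receptor for fungal beta-glucan and signals through Syk and Card9. It measured 4.40, 1.53 and 2.54 FPKM in the original/B6129SF1 tumors, 4.67, 10.6 and 8.35 FPKM in the adapted/B6129SF1 tumors and 7.04, 6.62 and 12.2 FPKM in the adapted/C57BL/6 tumors. Every tumor of adapted cells lay above the original/B6129SF1 tumors, but adapted/B6129SF1 replicate 1 exceeded the highest of them by little. The difference of 1.22 (SE 0.35) on the log2 scale had a limma adjusted p of 0.0693 in the adapted/B6129SF1 group, and that of 1.35 (SE 0.35) had a limma adjusted p of 0.0552 in the adapted/C57BL/6 group. Both contrasts would be called without adapted/B6129SF1 replicate 1 (1.51 with a limma adjusted p of 0.0427, and 1.35 with a limma adjusted p of 0.0379), which in the second case belongs to neither of the groups compared.

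Clec4n (Dectin-2), which binds mannose-rich glycans and signals through Fcer1g, was the most abundant of the 10 lectins in the original/B6129SF1 and adapted/C57BL/6 groups. Its level was 55.4, 48.3 and 69.6 FPKM in the original/B6129SF1 tumors, 59.3, 32.4 and 51.5 FPKM in the adapted/B6129SF1 tumors and 51.1, 43.4 and 66.7 FPKM in the adapted/C57BL/6 tumors. The groups overlapped, and the differences were -0.30 (SE 0.24, limma adjusted p = 0.467) and -0.11 (SE 0.24, limma adjusted p = 0.826). It was the 1 lectin of the 8 whose estimate lay below 0 in both groups of adapted cells.

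Clec4d (MCL) and Clec4e (Mincle) pair with Fcer1g and recognise mycobacterial glycolipids, and Mincle also binds the Sap130 protein that dying cells release. Clec4d measured 20.2, 27.7 and 38.2 FPKM in the original/B6129SF1 tumors, 42.7, 14.1 and 57.4 FPKM in the adapted/B6129SF1 tumors and 29.3, 30.6 and 43.9 FPKM in the adapted/C57BL/6 tumors. The adapted/B6129SF1 tumors held both the lowest and the highest of these values. Its difference was 0.23 (SE 0.46, limma adjusted p = 0.781) in the adapted/B6129SF1 group, where it was -0.17 without adapted/B6129SF1 replicate 3, and 0.28 (SE 0.46, limma adjusted p = 0.751) in the adapted/C57BL/6 group. Clec4e measured 3.81, 4.73 and 4.18 FPKM in the original/B6129SF1 tumors, 5.92, 3.95 and 11.0 FPKM in the adapted/B6129SF1 tumors and 5.98, 4.04 and 8.90 FPKM in the adapted/C57BL/6 tumors. In each group of adapted cells 1 tumor stayed within the original/B6129SF1 range. The differences of 0.51 (SE 0.33, limma adjusted p = 0.356) and 0.43 (SE 0.33, limma adjusted p = 0.473) did not pass.

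Clec10a (Mgl1), a receptor for galactose and N-acetylgalactosamine on macrophages and dendritic cells, rested largely on 1 tumor. It measured 1.66, 2.14 and 1.38 FPKM in the original/B6129SF1 tumors, 4.31, 2.77 and 24.2 FPKM in the adapted/B6129SF1 tumors and 5.18, 1.83 and 3.68 FPKM in the adapted/C57BL/6 tumors. The value of 24.2 FPKM came from adapted/B6129SF1 replicate 3, the tumor richest in muscle transcripts, and stood apart from all others. The difference was 1.56 (SE 0.63, limma adjusted p = 0.156) in the adapted/B6129SF1 group and 0.68 (SE 0.63, limma adjusted p = 0.553) in the adapted/C57BL/6 group. Without both muscle-rich tumors these became 0.72 (limma adjusted p = 0.165) and 0.43 (limma adjusted p = 0.383). Clec10a has a close paralog, Mgl2, with which it could share fragments, and Mgl2 lay between 1.05 and 4.61 FPKM in all 9 tumors and was not called.

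Clec2d, a broadly expressed ligand of the NK cell receptor family Klrb1 that also binds histones, did not pass the test. It measured 23.9, 37.9 and 28.6 FPKM in the original/B6129SF1 tumors, 33.0, 32.7 and 42.8 FPKM in the adapted/B6129SF1 tumors and 34.0, 38.2 and 38.6 FPKM in the adapted/C57BL/6 tumors, with overlap between all groups. Its difference was 0.27 (SE 0.17, limma adjusted p = 0.348) in the adapted/B6129SF1 group and 0.31 (SE 0.17, limma adjusted p = 0.312) in the adapted/C57BL/6 group. Clec1b (CLEC-2), the podoplanin receptor of platelets, was close to 0 throughout. It was listed at 0, 0.0826 and 0.0565 FPKM in the original/B6129SF1 tumors, 0.546, 0.108 and 0.268 FPKM in the adapted/B6129SF1 tumors and 0.225, 0.152 and 0.0367 FPKM in the adapted/C57BL/6 tumors. In exact two-sided permutation tests of these values the p was 0.1 for the adapted/B6129SF1 group, the smallest that 3 tumors against 3 can give, and 0.3 for the adapted/C57BL/6 group, and at such levels no change can be read from them.

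**Figure D2:**
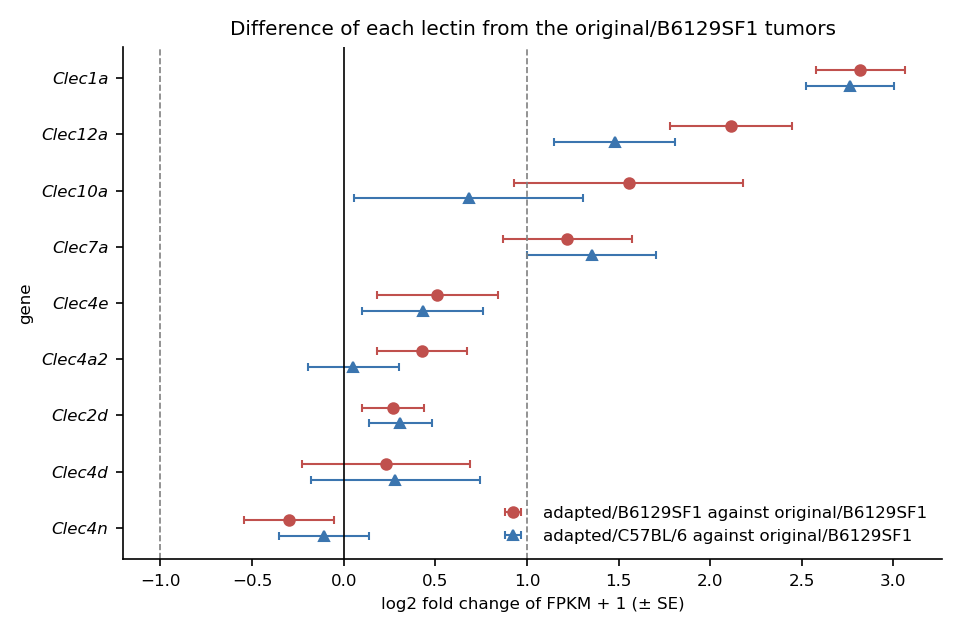
Difference of each tested lectin from the original/B6129SF1 group, as log2 fold change of FPKM + 1 with its SE, for adapted/B6129SF1 (circles) and adapted/C57BL/6 (triangles) tumors, 3 per group, with dashed lines at a log2 fold change of 1 and -1. Clec1a, which was picked for this difference, stands at 2.82 and 2.76 and Clec12a at 2.11 and 1.48, while Clec4n lies at -0.30 and -0.11.

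Among the 6 tumors of adapted cells, where the difference for which Clec1a was picked plays no part, none of the other lectins tested had a positive r with it. For Clec12a and Clec7a this rested on the tumors with the most Clec1a, so whether they follow it is not settled. Pearson's r of log2(FPKM + 1) with Clec1a was below 0 for 8 of the 8 lectins tested, whereas 50.4% of all other genes tested had an r below 0. The 8 values share the same 6 tumors and are not independent of each other. The lowest was that of Clec4a2 (r = -0.77, exact permutation p = 0.0444, adjusted over all genes 0.457, Spearman's rho = -0.60, exact permutation p = 0.242, adjusted 0.653). It was followed by Clec4e (r = -0.62, exact permutation p = 0.21), Clec10a (r = -0.61, exact permutation p = 0.19), Clec7a (r = -0.52, exact permutation p = 0.299), Clec12a (r = -0.51, exact permutation p = 0.331), Clec2d (r = -0.28, exact permutation p = 0.551), Clec4n (r = -0.17, exact permutation p = 0.758) and Clec4d (r = -0.16, exact permutation p = 0.797). Adjusted over all genes these p-values ran from 0.457 to 0.917. Spearman's rho was likewise negative for each, from -0.14 for Clec4d to -0.77 for Clec10a. Over all genes, 10.4% had an unadjusted exact p under 0.05 and 0 an adjusted p under 0.05. The 720 orders of 6 tumors allow no exact permutation p below 0.00139, and at least 286 genes would have had to reach it for any adjusted p to fall under 0.05, so the correction says little about single genes here and the values are given as a description.

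The negative values rested in part on the tumors with the most Clec1a. Adapted/C57BL/6 replicate 2 and adapted/B6129SF1 replicate 1 lay farthest from the median of Clec1a, and without both of them r was 0.82 for Clec12a, 0.76 for Clec7a and 0.02 for Clec4a2, while it stayed at -0.43 for Clec2d, -0.68 for Clec4d, -0.59 for Clec4e, -0.59 for Clec4n and -0.60 for Clec10a. Those relations of Clec12a, Clec7a and Clec4a2 thus did not hold in the remaining 4 tumors. Without both muscle-rich tumors r was -0.67 for Clec12a, -0.91 for Clec7a and -0.79 for Clec4a2, and 0.13 for Clec4d.

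**Figure D3:**
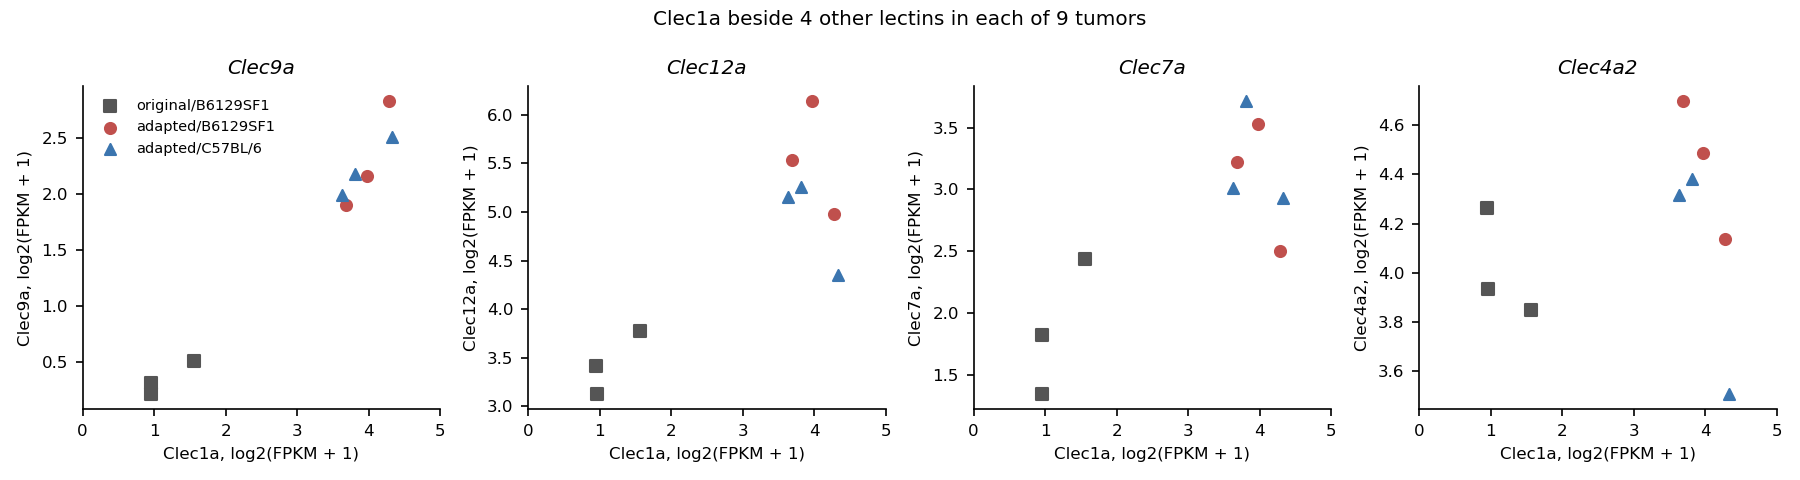
Level of Clec9a, Clec12a, Clec7a and Clec4a2 against that of Clec1a, each as log2(FPKM + 1), 1 point per tumor of the original/B6129SF1 (squares), adapted/B6129SF1 (circles) and adapted/C57BL/6 (triangles) groups, with vertical axes that do not start at 0. Among the 6 tumors of adapted cells Clec9a is higher where Clec1a is higher (r = 0.91), while Clec12a (r = -0.51), Clec7a (r = -0.52) and Clec4a2 (r = -0.77) are lowest or near lowest where Clec1a is highest.

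The C-type lectin closest to Clec1a was Clec9a, a gene outside the 10. Clec9a (DNGR-1) encodes a receptor for the actin of dead cells and is a hallmark of conventional type 1 dendritic cells. Its level was 0.416, 0.154 and 0.236 FPKM in the original/B6129SF1 tumors, 6.15, 3.46 and 2.75 FPKM in the adapted/B6129SF1 tumors and 2.99, 4.71 and 3.52 FPKM in the adapted/C57BL/6 tumors. No original/B6129SF1 tumor reached 1 FPKM, so Clec9a too entered the fit through the tumors of adapted cells and had to differ. Its differences of 1.96 (SE 0.25) in the adapted/B6129SF1 group and 1.89 (SE 0.25) in the adapted/C57BL/6 group are therefore given without a test. Among the 6 tumors of adapted cells its r with Clec1a was 0.91 (exact permutation p = 0.0125, adjusted over all genes 0.455, Spearman's rho = 0.83, exact permutation p = 0.0583, adjusted 0.531), and it was 0.79 without the 2 tumors farthest from the median and 0.83 without both muscle-rich tumors. Since Clec9a is singled out here as the closest of the lectins by this likeness, its p-values are a description and not a test.

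In every tumor the FPKM of Clec9a amounted to between 16.4% and 33.3% of that of Clec1a. Markers of dendritic cells were set beside it. Xcr1, a receptor of type 1 dendritic cells, lay between 0.132 and 0.321 FPKM in all 9 tumors and was not tested. Batf3, a transcription factor of the same cells, lay between 0.240 and 0.290 FPKM in the original/B6129SF1 tumors and between 0.391 and 1.48 FPKM in the tumors of adapted cells, and Zbtb46, a transcription factor of conventional dendritic cells, between 0.567 and 0.990 FPKM and between 1.13 and 2.17 FPKM. Neither overlapped between original and adapted tumors, and both entered the fit through the tumors of adapted cells. Of the 8 dendritic cell markers the other 2 that were tested, Itgax and Ccr7, were not called by limma in any contrast. The summed level of the list, led by Itgax, was 5.84, 3.50 and 5.51 FPKM in the original/B6129SF1 tumors, 5.23, 11.1 and 10.6 FPKM in the adapted/B6129SF1 tumors and 11.6, 8.92 and 9.08 FPKM in the adapted/C57BL/6 tumors, and the part of these cells in the Clec9a values was not tested.

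In the human RefSeq annotation (GRCh38.p14) Clec1a, Clec9a, Clec12a, Clec1b and Clec7a belong to one cluster, in the order CLEC12A, CLEC1B, CLEC12B, CLEC9A, CLEC1A, CLEC7A, OLR1, TMEM52B and GABARAPL1. No mouse annotation was used here, so the mouse order was not examined and no coordinates are given. Clec12b, an inhibitory receptor, stayed below 1 FPKM in all 9 tumors, from 0 to 0.719, as did Clec1b, and at these levels no change can be read. Olr1, the receptor for oxidised low-density lipoprotein, measured 0.288, 0.333 and 0.312 FPKM in the original/B6129SF1 tumors, 2.24, 0.888 and 0.766 FPKM in the adapted/B6129SF1 tumors and 0.945, 1.03 and 1.58 FPKM in the adapted/C57BL/6 tumors. All tumors of adapted cells were above the original/B6129SF1 tumors. Olr1 entered the fit through 3 tumors of adapted cells, and its differences of 0.75 (SE 0.24) and 0.73 (SE 0.24) are likewise given without a test.

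Gabarapl1, an autophagy gene at the far end of the stretch and not a lectin, measured 64.1, 84.8 and 70.9 FPKM in the original/B6129SF1 tumors, 154, 101 and 82.4 FPKM in the adapted/B6129SF1 tumors and 80.9, 139 and 89.1 FPKM in the adapted/C57BL/6 tumors. The groups overlapped, and its differences of 0.57 (SE 0.26, limma adjusted p = 0.204) and 0.45 (SE 0.26, limma adjusted p = 0.329) did not pass. It nevertheless ranked the 6 tumors of adapted cells much as Clec1a did, with an r of 0.98 (exact permutation p = 0.00417, adjusted over all genes 0.441, Spearman's rho = 0.94, exact permutation p = 0.0167, adjusted 0.468) and 0.99 without the 2 tumors farthest from the median. Adapted/B6129SF1 replicate 1 and adapted/C57BL/6 replicate 2 were the highest for both genes. Gabarapl1 was named after its values were seen, so these p-values are a description. Over the deviations of all 9 tumors from their group means r was 0.60, and original/B6129SF1 replicate 1 was the highest of its group for Clec1a and the lowest for Gabarapl1.

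**Figure D4:**
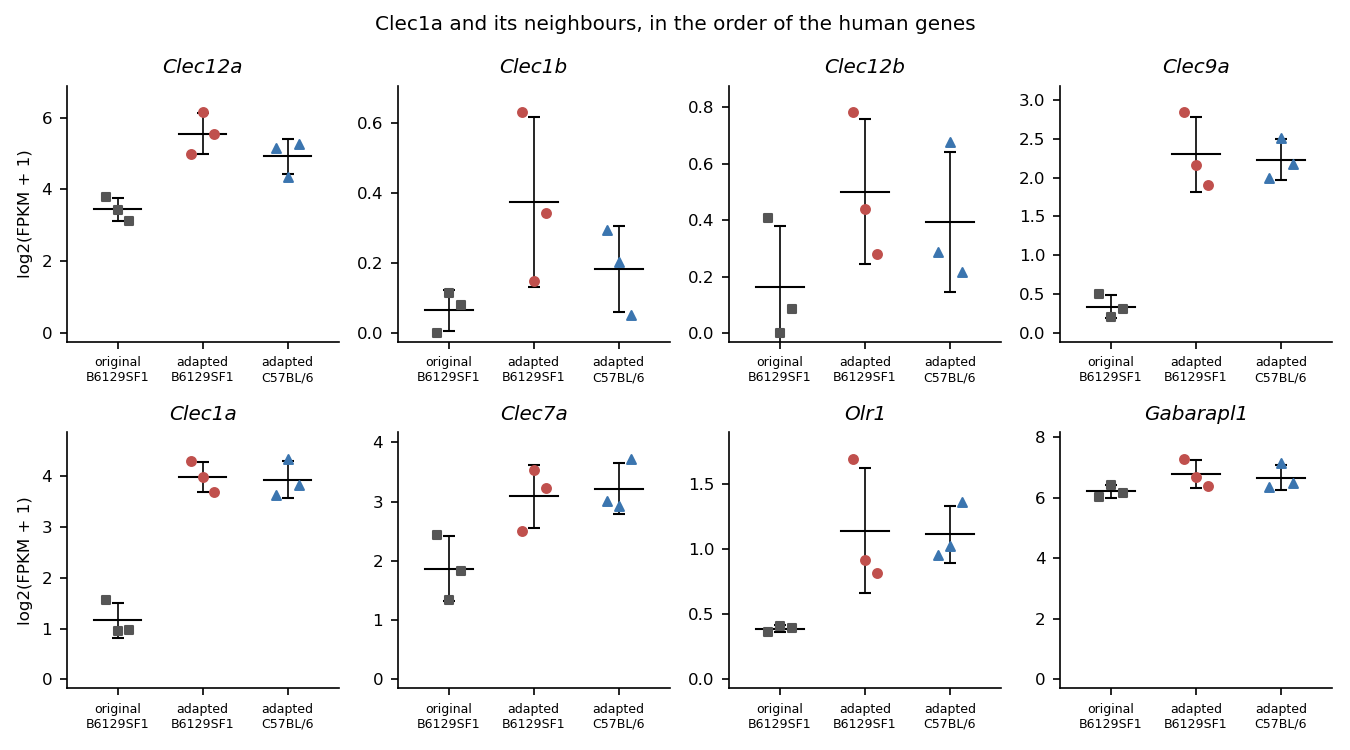
Level of Clec1a and of its neighbours in the order of the human genes, as log2(FPKM + 1), 1 point per tumor, with a line at the mean and bars for the SD of 3 tumors in each group, and a vertical scale of its own for each gene (TMEM52B had no row in the table). Clec9a and Clec1a show the widest gap between the highest original and the lowest adapted tumor, Clec12a and Olr1 a smaller one and Clec7a a narrow one, and Clec1b and Clec12b stay near 0.

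Among 49 further C-type lectin and lectin-like genes listed, 48 were in the table and 22 were tested. Klra2 was called higher in each comparison with the original/B6129SF1 group, where 2.36% and 2.42% of all genes tested were, and 0 were called lower by limma. Clec9a also met the call rule in both, but like Olr1 it entered the fit through the tumors of adapted cells and is not counted as a call. With Clec9a counted, the 2 genes of the list that met the rule in each comparison became 4 and 5 without adapted/B6129SF1 replicate 1. In that setting 3.50% and 3.40% of all genes tested were called in either direction. Klrk1 was among the added genes, but it too reached 1 FPKM in no original/B6129SF1 tumor (0.694, 0.247 and 0.344 FPKM). Like Clec9a, it is not counted as a call. Klrd1, a subunit of NK cell receptors, was called without adapted/B6129SF1 replicate 1 (1.24 and 1.09, limma adjusted p = 0.0113 and 0.00825), against 0.78 and 1.09 (limma adjusted p = 0.192 and 0.0972) with all tumors. With 6 genes of the 22 that reached 1 FPKM in no original/B6129SF1 tumor included, the median difference of the list was 0.53 in the adapted/B6129SF1 group and 0.51 in the adapted/C57BL/6 group, beside -0.03 over all genes, and is a description only. Klra2, a lectin-like receptor of the Ly49 family whose close copies could share its fragments, measured 5.61, 3.02 and 4.75 FPKM in the original/B6129SF1 tumors, 10.3, 18.1 and 24.3 FPKM in the adapted/B6129SF1 tumors and 20.3, 10.4 and 21.7 FPKM in the adapted/C57BL/6 tumors. It rose by 1.72 (SE 0.35, limma adjusted p = 0.0236) and 1.73 (SE 0.35, limma adjusted p = 0.0255), and in the tumors of adapted cells it was lowest in the pair with the highest Clec1a (r = -0.95, exact permutation p = 0.0139, adjusted over all genes 0.455, Spearman's rho = -0.77, exact permutation p = 0.103, adjusted 0.548). Its call in the adapted/B6129SF1 group was lost without any 1 original/B6129SF1 tumor or without adapted/B6129SF1 replicate 2 or 3 (limma adjusted p from 0.0525 to 0.0746) and without both muscle-rich tumors (1.46, limma adjusted p = 0.0663), and that in the adapted/C57BL/6 group without any 1 original/B6129SF1 tumor or without adapted/C57BL/6 replicate 1 or 3 (from 0.0533 to 0.106).

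The paralogs of Clec4a2 were tested as well. Clec4a1 measured 15.9, 22.4 and 19.9 FPKM in the original/B6129SF1 tumors, 25.5, 32.1 and 53.9 FPKM in the adapted/B6129SF1 tumors and 38.8, 14.8 and 24.9 FPKM in the adapted/C57BL/6 tumors. Clec4a3 ran from 14.05 to 16.1 FPKM, from 21.4 to 44.4 FPKM and from 10.5 to 32.8 FPKM in the same groups. Both were lowest of all 9 tumors in adapted/C57BL/6 replicate 2, as Clec4a2 was, and neither was called in any contrast. Of all 22 tested genes in the list, 4 had an r above 0 with Clec1a among the tumors of adapted cells, 7 without the 2 tumors farthest from its median and 8 without both muscle-rich tumors. Mrc1, the macrophage mannose receptor and the most abundant of these lectins, lay between 113 and 257 FPKM in the original/B6129SF1 tumors and between 54.6 and 155 FPKM in the tumors of adapted cells, and its differences of -0.69 (SE 0.45, limma adjusted p = 0.354) and -0.49 (SE 0.45, limma adjusted p = 0.553) did not pass.

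Signalling genes that serve these receptors were set beside them. Of 17 genes tested for the pathway from Fcer1g through Syk to Card9 and NF-kB, 0 were called by limma in any contrast, where 2.36% and 2.42% of all genes tested were called higher and 0.857% and 0.672% lower, so that 0 of 17 is near the background, with median differences of 0.26 in the adapted/B6129SF1 group and 0.19 in the adapted/C57BL/6 group. The adaptor Fcer1g measured 146, 179 and 197 FPKM in the original/B6129SF1 tumors, 200, 219 and 291 FPKM in the adapted/B6129SF1 tumors and 403, 209 and 382 FPKM in the adapted/C57BL/6 tumors. All tumors of adapted cells lay above the original/B6129SF1 tumors, with differences of 0.43 (SE 0.26, limma adjusted p = 0.32) and 0.88 (SE 0.26, limma adjusted p = 0.0777). Prkcd, the kinase between Syk and Card9, passed the adjusted p but not the fold threshold, at 0.76 (SE 0.13, limma adjusted p = 0.0119) and 0.53 (SE 0.13, limma adjusted p = 0.0432). In the adapted/B6129SF1 group so did Pik3cd, a subunit of a lipid kinase of leukocytes, at 0.83 (SE 0.18, limma adjusted p = 0.0293), and in the other direction Rela, a subunit of NF-kB, at -0.34 (SE 0.09, limma adjusted p = 0.0433). Of the 3 phosphatases of inhibitory receptors (Ptpn6, Ptpn11 and Inpp5d), 0 were called by limma, and Ptpn6 came nearest in the adapted/B6129SF1 group with 1.07 (SE 0.32, limma adjusted p = 0.0768). Ptpn6 was called there without adapted/C57BL/6 replicate 2 (limma adjusted p = 0.0224), and Fcer1g was called in the adapted/C57BL/6 group without the same tumor (1.18, limma adjusted p = 0.0199).

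Ligands of the receptors were mostly not called. Of 7 ligand and partner genes tested, 0 were called by limma in the adapted/B6129SF1 group and 1, higher, in the adapted/C57BL/6 group, where 2.42% of all genes tested were called higher. Without adapted/B6129SF1 replicate 1 the number in the adapted/C57BL/6 group was 2, beside 3.40% of all genes tested in either direction. The call with all tumors was Trim21, a cytosolic antibody receptor and ubiquitin ligase. It measured 5.30, 3.88 and 4.14 FPKM in the original/B6129SF1 tumors, 8.01, 8.79 and 7.49 FPKM in the adapted/B6129SF1 tumors and 9.41, 10.9 and 11.4 FPKM in the adapted/C57BL/6 tumors, and the original and adapted tumors did not overlap. Its difference was 1.09 (SE 0.13, limma adjusted p = 0.00305) in the adapted/C57BL/6 group and 0.75 (SE 0.13, limma adjusted p = 0.0133), under the fold threshold, in the adapted/B6129SF1 group, and the difference between these was not called (0.35, SE 0.13, limma adjusted p = 0.773). Lgals9, the galectin-9 that binds Dectin-1, passed the adjusted p under the fold threshold in both groups (0.68 and 0.59, SE 0.10, limma adjusted p = 0.00736 and 0.00949). Vim, the intermediate filament protein vimentin and the most abundant gene of this list, lay lower, with -0.91 (SE 0.18, limma adjusted p = 0.02) in the adapted/B6129SF1 group, also under the fold threshold, and -0.66 (limma adjusted p = 0.0583) in the adapted/C57BL/6 group. It was called lower in the adapted/B6129SF1 group without original/B6129SF1 replicate 1 or adapted/B6129SF1 replicate 2 (-1.01 and -1.02, limma adjusted p = 0.037 and 0.0329).

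Of 14 tested response genes of these receptors, 1 was called higher and 1 lower in the adapted/B6129SF1 group, and 2 higher and 1 lower in the adapted/C57BL/6 group, beside 2.36% and 0.857% of all genes tested in the first comparison and 2.42% and 0.672% in the second. Ptgs2, the inducible prostaglandin synthase, fell in both, from 32.1, 10.9 and 43.3 FPKM in the original/B6129SF1 tumors to between 2.70 and 6.89 FPKM in every tumor of adapted cells (-2.39 and -2.24, SE 0.48, limma adjusted p = 0.0215 and 0.0296). Egr2, a transcription factor induced by Dectin-1, rose by 1.31 (SE 0.33, limma adjusted p = 0.047) in the adapted/B6129SF1 group. The chemokines Ccl3 and Ccl4 rose by 1.03 (SE 0.21, limma adjusted p = 0.0265) and 1.52 (SE 0.34, limma adjusted p = 0.0356) in the adapted/C57BL/6 group, and stood at 0.01 and 0.08 in the adapted/B6129SF1 group. These calls were fragile. That of Egr2 was lost without any 1 of the 9 tumors (limma adjusted p from 0.0502 to 0.127), and those of Ccl3 and Ccl4 without any 1 original/B6129SF1 or adapted/C57BL/6 tumor (from 0.0507 to 0.107 and from 0.0638 to 0.127). Ptgs2 lost its call without original/B6129SF1 replicate 1 or 3 in both groups, without adapted/B6129SF1 replicate 2 or 3 in the adapted/B6129SF1 group (limma adjusted p from 0.0564 to 0.0775) and without any 1 adapted/C57BL/6 tumor in the adapted/C57BL/6 group (from 0.0556 to 0.104). Without both muscle-rich tumors all of these calls were lost, with a limma adjusted p of 0.0608 for Egr2, 0.0763 for Ccl3, 0.0933 for Ccl4 and 0.0668 and 0.0732 for Ptgs2.

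Markers of the cells that carry these receptors were set beside them. The 10 macrophage and monocyte markers in the table summed to 719, 900 and 896 FPKM in the original/B6129SF1 tumors, 1196, 1072 and 1335 FPKM in the adapted/B6129SF1 tumors and 1376, 683 and 1311 FPKM in the adapted/C57BL/6 tumors, with C1qa the most abundant. The adapted/B6129SF1 tumors lay above the original/B6129SF1 tumors, whereas adapted/C57BL/6 replicate 2 was the lowest of all. Of these markers 1 was called higher in the adapted/B6129SF1 group, Ccr2 (1.04, SE 0.24, limma adjusted p = 0.0342), and 0 by limma in the adapted/C57BL/6 group, beside 2.36% and 2.42% of all genes tested, and 2 of 10 had an r above 0 with Clec1a among the tumors of adapted cells. The difference was above 0 for 10 of 10 markers in the adapted/B6129SF1 group and for 9 of 10 in the adapted/C57BL/6 group. The median difference over all genes tested was -0.03 in both. The markers share the same tumors and are not independent of each other, so these counts are a description. Fcgr1, the high-affinity antibody receptor of macrophages, lay between 14.6 and 20.6 FPKM in the original/B6129SF1 tumors and between 25.6 and 46.1 FPKM in the tumors of adapted cells, and passed the adjusted p but not the fold threshold in the adapted/C57BL/6 group (0.96, SE 0.21, limma adjusted p = 0.0304), with 0.77 (limma adjusted p = 0.0561) in the adapted/B6129SF1 group. It was called in the adapted/C57BL/6 group without adapted/C57BL/6 replicate 2 (1.18, limma adjusted p = 0.0155), where 2 of the 10 markers were called, beside 2.68% of all genes tested in either direction. The Ccr2 call was lost without any 1 original/B6129SF1 tumor, without adapted/B6129SF1 replicate 2 or 3 or without adapted/C57BL/6 replicate 3 (limma adjusted p from 0.0549 to 0.111), and also without both muscle-rich tumors (0.0955). Of 5 neutrophil markers tested, led by S100a8, 0 were called by limma. Ptprc, the general leukocyte marker CD45, which was chosen after its values were seen, measured 16.4, 11.6 and 18.8 FPKM in the original/B6129SF1 tumors, 21.9, 31.6 and 34.5 FPKM in the adapted/B6129SF1 tumors and 35.6, 17.6 and 31.6 FPKM in the adapted/C57BL/6 tumors. It was lowest among the tumors of adapted cells in the pair with the highest Clec1a (r = -0.95, exact permutation p = 0.00278, adjusted over all genes 0.407, Spearman's rho = -0.94, exact permutation p = 0.0167, adjusted 0.468), and r was -0.90 without the 2 tumors farthest from the median. The part of leukocyte number in any lectin value was not tested.

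Markers of endothelial cells, in which Clec1a is known, were also compared. Of 13 blood endothelial markers, all tested, 0 were called by limma in any contrast, where 2.36% and 2.42% of all genes tested were called higher. Of these markers 12 and 13 had a difference above 0, with a median difference of 0.34 in the adapted/B6129SF1 group and 0.25 in the adapted/C57BL/6 group, beside -0.03 over all genes in both. These markers too are not independent of each other. The summed level of the 13 markers, led by Plvap, was 112, 118 and 146 FPKM in the original/B6129SF1 tumors, 172, 128 and 199 FPKM in the adapted/B6129SF1 tumors and 180, 166 and 153 FPKM in the adapted/C57BL/6 tumors. The original/B6129SF1 range overlapped that of the adapted/B6129SF1 group and lay below that of the adapted/C57BL/6 group, and 3 of the 13 had an r above 0 with Clec1a among the tumors of adapted cells. That number was 11 without both muscle-rich tumors and 0 without the 2 tumors farthest from the median of Clec1a, so no direction can be read from it. Egfl7, a secreted factor of endothelial cells, passed the adjusted p under the fold threshold in both groups (0.59 and 0.59, SE 0.14, limma adjusted p = 0.0406 and 0.0471). Clec14a, a lectin-like gene of endothelium, lay between 0.721 and 2.48 FPKM in all tumors and was not called. Of 4 lymphatic markers tested, led by Pdpn, 0 were called by limma.

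The remaining marker lists held few calls. Among all genes tested, 2.36% and 2.42% were called higher and 0.857% and 0.672% lower in the adapted/B6129SF1 and adapted/C57BL/6 groups. Of 6 T and NK cell markers tested, of which Cd3e, Cd3d and Cd4 reached 1 FPKM in no original/B6129SF1 tumor, 1 was called higher in each comparison, Cd3g of the T cell receptor complex (1.499, limma adjusted p = 0.0393, and 1.95, limma adjusted p = 0.017), and 0 of the 6 had an r above 0 with Clec1a, but 4 of the 6 without the 2 tumors farthest from its median. Without adapted/B6129SF1 replicate 1, 4 of the 6 met the call rule in each comparison, beside 3.50% and 3.40% of all genes tested in either direction. That number cannot be reached without Cd3e, Cd3d or Cd4, which entered the fit through the tumors of adapted cells, and it is a description only. The Cd3g call in the adapted/B6129SF1 group was lost without any tumor but adapted/B6129SF1 replicate 1 (limma adjusted p from 0.0508 to 0.112) and that in the adapted/C57BL/6 group without any 1 original/B6129SF1 tumor or without adapted/C57BL/6 replicate 1 or 3 (from 0.0534 to 0.0714). Of 2 platelet markers tested, Pf4, the most abundant, was not called and Ppbp was called lower in the adapted/B6129SF1 group (-2.43, limma adjusted p = 0.0259), which was lost without original/B6129SF1 replicate 1 or 3 or adapted/B6129SF1 replicate 2 or 3 (limma adjusted p from 0.0666 to 0.0943). Gp6, the collagen receptor of platelets, was below 0.1 FPKM in every tumor. Cspg4 of pericytes, 1 of 6 fibroblast and pericyte genes tested, was called lower in both comparisons (-1.01 and -1.14, limma adjusted p = 0.0354 and 0.0262), as was Krt8 of epithelium, 1 of 5 thyroid epithelial genes tested (-1.32 and -1.12, limma adjusted p = 0.0189 and 0.0346). The Cspg4 call was lost in the adapted/B6129SF1 group without any 1 original/B6129SF1 tumor, without adapted/B6129SF1 replicate 2 or 3 or without adapted/C57BL/6 replicate 3 (limma adjusted p from 0.0512 to 0.116) and in the adapted/C57BL/6 group without original/B6129SF1 replicate 1 or 3 or adapted/C57BL/6 replicate 2 or 3 (from 0.0645 to 0.101). That of Krt8 was lost in both groups without original/B6129SF1 replicate 1 or 3 and in the second also without any 1 adapted/C57BL/6 tumor (limma adjusted p from 0.0679 to 0.116). Without both muscle-rich tumors the calls of Cd3g (limma adjusted p = 0.111 and 0.0507), Ppbp (0.0584) and Krt8 (0.0608 and 0.0615) were lost, as was that of Cspg4 in the adapted/B6129SF1 group (0.0608). With 1 tumor left out, the number called in the adapted/B6129SF1 group rose from 1 to 2 for the platelet list and for the fibroblast and pericyte list (without adapted/B6129SF1 replicate 1) and for the thyroid epithelial list (without adapted/B6129SF1 replicate 2). In these settings 3.50% and 2.55% of all genes tested were called in either direction. Of the 10 muscle genes 0 were called by limma. None of the 5 B cell markers was tested, and their summed level was at most 1.46 FPKM. Nkx2-1, a transcription factor of thyroid cells, lay between 23.5 and 44.5 FPKM in all groups with differences of 0.04 and 0.09 (limma adjusted p = 0.932 and 0.859). Among the tumors of adapted cells its r with Clec1a was 0.92 (exact permutation p = 0.0111, adjusted over all genes 0.455, Spearman's rho = 0.89, exact permutation p = 0.0333, adjusted 0.468) and 0.77 without the 2 tumors farthest from the median. Over the deviations of all 9 tumors from their group means it was 0.50. The other thyroid epithelial genes tested did not share the r of 0.92 among the tumors of adapted cells, with -0.19 for Tg, -0.14 for Epcam, 0.07 for Krt8 and 0.44 for Krt18. Of the 5 genes, 3 had an r above 0, with a median of 0.07, and 4 without the 2 tumors farthest from the median.

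Likeness to Clec1a was also searched over all genes. Among 8121 genes tested with a mean of at least 5 FPKM, the highest r with Clec1a over the 9 tumors, a measure of likeness that mostly carries the gap between original and adapted tumors, belonged to Speg (0.994), Hoxa10 (0.992), Trim30a (0.991), Hoxa9 (0.987) and Gata2 (0.987). Speg encodes a kinase of striated muscle, Hoxa9 and Hoxa10 are homeobox transcription factors, Trim30a is an interferon-induced regulator and Gata2 is a transcription factor of blood and endothelial cells. Hoxa10 measured 1.65, 1.63 and 1.29 FPKM in the original/B6129SF1 tumors, 19.9, 14.1 and 10.8 FPKM in the adapted/B6129SF1 tumors and 10.3, 19.2 and 13.2 FPKM in the adapted/C57BL/6 tumors, and so nearly repeated the levels of Clec1a tumor by tumor. Clec9a, whose mean lay under that limit, had an r of 0.988, above those of Hoxa9 and Gata2. For the members, r over the 9 tumors was 0.83 for Clec12a, 0.81 for Clec7a, 0.48 for Clec2d, 0.44 for Clec10a, 0.38 for Clec4e, 0.18 for Clec4a2, 0.15 for Clec4d and -0.33 for Clec4n.

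Once each group's mean was removed, among the same 8121 genes Gata2 (0.984), St13 (0.969), Speg (0.960), Atad2b (0.956) and Rab3gap1 (0.944) had the highest r with Clec1a. St13 is a cochaperone, Atad2b a chromatin protein and Rab3gap1 an activator of a small GTPase. Of the lectins, Clec9a had an r of 0.85 on this measure, while Clec7a (0.02) was near 0 and Clec4n (-0.14), Clec4d and Clec12a (both -0.31), Clec2d (-0.52), Clec4e (-0.58), Clec10a (-0.59) and Clec4a2 (-0.86) were negative. Gata2 measured 6.85, 4.75 and 5.18 FPKM in the original/B6129SF1 tumors, 13.8, 11.8 and 10.7 FPKM in the adapted/B6129SF1 tumors and 10.3, 13.7 and 10.7 FPKM in the adapted/C57BL/6 tumors. Gata2 was also picked by its likeness to Clec1a over all tumors, which mostly carries the gap between original and adapted tumors. Its differences of 1.00 (SE 0.16) and 0.93 (SE 0.16) are therefore a description without a test. Both stayed under the fold threshold. The first crossed it without original/B6129SF1 replicate 1 or adapted/B6129SF1 replicate 2 or 3 (from 1.01 to 1.13) and the second without original/B6129SF1 replicate 1 or adapted/C57BL/6 replicate 1 (from 1.01 to 1.06), and both crossed it without both muscle-rich tumors (1.08 and 1.01).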

How the data were processed

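Whole-tumor RNA of 9 tumors was sequenced as paired-end reads, which the authors checked with FastQC, aligned to mm10 with HISAT2 and normalized over all tumors with Cuffnorm. The deposited values are FPKM per gene. With no read counts used, the depth behind each value is unknown, and p-values measure only the spread between tumors. The organism field of the labels names human, but strains, cell line and build are mouse. Groups and replicate numbers came from the labels.

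Values were taken as log2(FPKM + 1). Genes reaching 1 FPKM in 3 or more tumors (10263) were fitted by limma 3.58.1 (R 4.3.3) with a trended prior, all 3 groups in a single model, and p-values were adjusted by Benjamini-Hochberg. The fit was checked on simulated tumors. The members and gene lists were chosen with earlier results of these data known. Genes named are mainly the 10 members, list genes called in any contrast (at most 6 per list) or otherwise the 3 most abundant, and the 5 genes most like Clec1a by each measure. Some list genes, such as Nkx2-1 and Gp6, were named outside this rule. Ptprc, Gabarapl1 and list genes close to a threshold were named after their values were seen. The share of all genes whose groups do not overlap was not computed, so a lack of overlap for a named gene is a description only. Alternatives were another pseudocount, filters, rescaling, fewer groups, a replicate block, no trend, other thresholds and each tumor left out. No sequence was printed, since a mouse reference was not used here.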

Additional observations from a re-analysis of the deposited data

How the results depend on the processing

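Of 2861 alternative values for 162 results, 2500 kept their direction and side of the threshold or stayed within the replicate spread, 149 lost a call, 30 gained one, 146 moved and 36 changed sign. With a pseudocount of 0.1 FPKM the Clec1a difference became 3.51 in adapted/B6129SF1 and 3.45 in adapted/C57BL/6 tumors, and with each tumor left out it ran from 2.67 to 3.02 and from 2.56 to 2.96. The count of other lectins called in adapted/B6129SF1 tumors was 0 when tested against a log2 fold change of 1. Only 0.0292% of all genes tested were called there in either direction, so a 0 says little about the lectins. The count was from 1 to 2 with each tumor left out, beside 1.38% to 3.50% of all genes. In adapted/C57BL/6 tumors it was 0 with no filter, 0 with the replicate block, 0 when tested against a log2 fold change of 1, 0 without both muscle-rich tumors and 2 with only the groups compared, and it ran from 0 to 2 with each tumor left out. The shares of all genes called in these settings, in the same order, were 1.77%, 2.39%, 0.0682%, 3.26%, 3.49% and from 1.52% to 3.40%. Here too the 0 against a log2 fold change of 1 says little. The replicate block changed no other call of a lectin member. Same-numbered tumors are different animals and did not deviate together throughout (r from -0.39 to 0.61). The median r of Clec1a with the other lectins was -0.51 and ran from -0.67 to -0.46 with each tumor left out and was -0.44 without both muscle-rich tumors.

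Signs changed where differences were near 0. With each tumor left out, the adapted/C57BL/6 against adapted/B6129SF1 difference ran from -0.26 to 0.094 for Clec1a, from -0.027 to 0.16 for Clec2d, from -0.53 to 0.45 for Clec4d, from -0.37 to 0.27 for Clec4e, from -0.062 to 0.36 for Clec4n and from -0.16 to 0.36 for Clec7a, and for Clec4e it was 0.27 without both muscle-rich tumors. Against the original/B6129SF1 tumors, it ran from -0.17 to 0.81 for Clec4d, from -0.24 to 0.20 for Ccl3, from -0.36 to 0.42 for Ccl4 and from -0.15 to 0.29 for Nkx2-1 in adapted/B6129SF1, and from -0.10 to 0.33 for Clec4a2, from -0.27 to 0.032 for Clec4n, from -0.0019 to 0.67 for Clec4a1 and from -0.066 to 0.26 for Nkx2-1 in adapted/C57BL/6. Without both muscle-rich tumors Clec4d was -0.17 in adapted/B6129SF1, and Clec4a2 was -0.072 and Clec4a1 -0.0019 in adapted/C57BL/6, and Ccl3 was -0.0093 in adapted/B6129SF1 with a pseudocount of 0.1 FPKM. The r of Clec1a with Clec2d ran from -0.56 to 0.068 and with Clec4d from -0.36 to 0.11, and with Clec4d it was 0.13 without both muscle-rich tumors. The cause of these changes was not tested. With 3 tumors a group and no read counts, small differences and weakly expressed genes such as Clec1b could not be resolved.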
